A study of Mus musculus with 4 samples.

Results

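Matrix metalloproteases (Mmp genes), ADAM and ADAMTS proteases and the tissue inhibitors of metalloproteases (Timp genes) were described in the whole mouse uterus on day 4 of pregnancy. Members were taken by gene symbol, as every symbol beginning with Mmp, Adam or Adamts in the numbered form, together with Timp1 to Timp4, which gave 84 of the 54152 genes in the deposited table. They comprised 19 ADAMTS genes, 5 ADAMTS-like genes, 33 ADAM genes, 23 Mmp genes and 4 Timp genes. The series title sets P38α knockout against wild type; Mapk14 is the gene of this stress-responsive kinase. RNA came from whole uteri of C57 mice, in 2 libraries with the p38α genotype dd and 2 libraries with the p38α genotype ff. The sources used here do not give the driver of the deletion, the deleted exons, the age of the mice or the number of animals behind a library. Every p-value therefore reflects the spread among these 4 libraries, which may be technical.

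These enzymes share a catalytic zinc ion. Mmp enzymes cut collagens and other matrix proteins, either secreted or held at the cell surface. ADAM enzymes sit in the membrane and release growth factors, cytokines and receptors from it, although several members have lost the catalytic site. ADAMTS enzymes are secreted, and they cut proteoglycans such as versican, trim procollagens or act on elastic microfibrils, while ADAMTS-like proteins lack the protease domain. TIMP proteins block the active sites of most of these enzymes. In the pregnant uterus the families are known for the matrix turnover that goes with decidua formation and embryo invasion.

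Total counts were between 24619850 and 30868922 in the libraries labelled dd, and between 30202955 and 32451670 in those labelled ff, and the members took 0.245% and 0.244% of counts in dd libraries and 0.328% and 0.312% in ff libraries. Mapk14 itself was above its ff level in both dd libraries without passing, with 105.0 and 113.2 CPM (counts scaled to a common library size by TMM) in the libraries labelled dd against 92.3 and 87.0 CPM in those labelled ff (log2 fold change 0.28, SE 0.090, edgeR adjusted p = 0.12). A deletion of single exons may not alter a count summed over the gene, and every direction below rests on the labels dd and ff. Summed CPM over 12 epithelial markers was 2997 and 3417 in dd libraries, against 1198 and 1510 in ff libraries. For 13 stromal markers it was 11691 and 8047 in dd, against 16887 and 14886 in ff, and for 10 endothelial markers 825.8 and 832.4 in dd, against 1791 and 1522 in ff. Of these lists, 7 epithelial markers were called higher and none lower, while 4 stromal and 9 endothelial markers were called lower and none higher. Summed markers of B and plasma cells were at 451.3 and 915.0 CPM in dd and 38.2 and 62.2 CPM in ff (3 of 4 tested genes called higher). Those of the oviduct were at 195.9 and 217.4 CPM in dd and 106.7 and 79.4 CPM in ff (2 of 3 called higher). Red cell markers were at 237.5 and 305.4 CPM in dd and 69.1 and 68.0 CPM in ff (4 of 5 called higher). NK cell markers were at 27.8 and 15.8 CPM in dd and 79.5 and 67.7 CPM in ff (2 of 6 called lower). No muscle, neutrophil or mast cell marker was called. No epithelial, stromal or endothelial marker was at 0. In bulk tissue fewer cells of a type and less RNA per cell cannot be told apart.

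Levels were compared between members on the authors' FPKM scale (counts divided by gene length and depth), which corrects for gene length. Mmp2, the gelatinase A that cuts collagen IV and denatured collagen, had 84.9 and 124.5 FPKM in dd libraries and 145.1 and 114.9 FPKM in ff libraries. Timp2, which inhibits Mmp2 and also helps to dock its precursor on the cell surface, had 107.2 and 94.7 FPKM in dd and 119.9 and 114.6 FPKM in ff. The ranges of these genes overlapped, and both lay above all other members in every library. Together they made up between 36.8% and 41.8% of the members' summed FPKM.

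Mmp14, the membrane-bound activator of Mmp2, had the next highest mean, at 37.3 and 43.2 FPKM in dd and 39.2 and 38.1 FPKM in ff, below the range of Timp2 and above that of Adam10. Timp1 lay above it in ff replicate 1, at 44.7 FPKM, and below it in the other 3 libraries. Adam10, a sheddase whose substrates include Notch receptors, had 26.8 and 31.0 FPKM in dd and 32.5 and 31.3 FPKM in ff. From Adam10 down to rank 24, each gene overlapped its neighbour in the order. Among the 24 most abundant were Mmp23, Timp1, Adam15, Adam9, Adamts1, Mmp15, Timp3 and Mmp11. In all, 13 members averaged at least 10 FPKM over the 4 libraries, 27 lay between 1 and 10 FPKM, 31 had counts but less than 1 FPKM, and 13 had no count.

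**Figure D1:**
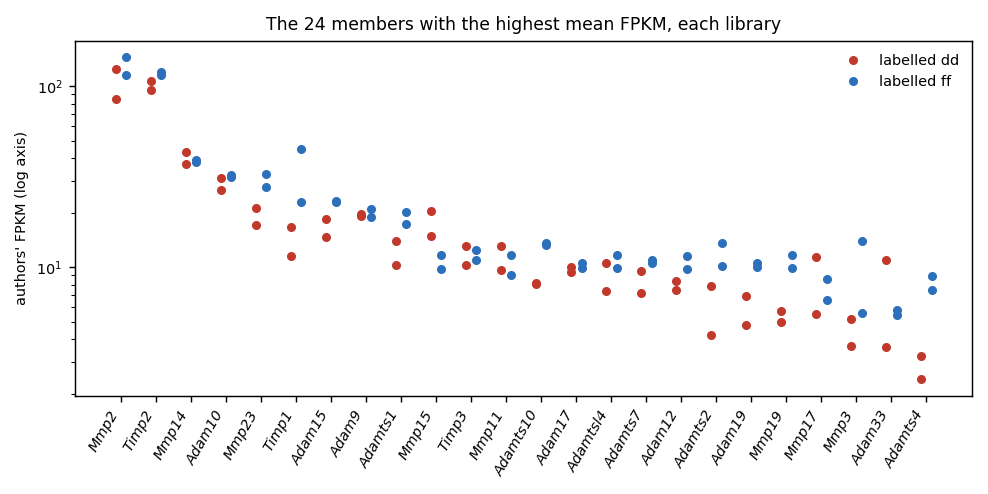
Authors' FPKM (log axis) of the 24 members with the highest mean, with a point for each library, dd in red and ff in blue. Mmp2 and Timp2 stand above the rest, Mmp14 has the next highest mean, at 37.3 to 43.2 FPKM, and further down the points of neighbouring genes overlap.

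Genes without counts in any library were mainly ADAM genes known from the testis, such as Adam24, Adam25, Adam26a, Adam26b, Adam34 and Adam39, besides the collagenase genes Mmp1a and Mmp1b and the enamel protease gene Mmp20. A count of 0 allows up to 3 counts, or between 0.0990 and 0.127 CPM in dd libraries and 0.0901 and 0.0963 CPM in ff libraries, with counting error alone. The filter on low counts (edgeR's filterByExpr) left 57 members to be tested. Of the 27 left out, 14 had some counts, at most 14 in a library, among them Adam7, Adam21, Adam32, Mmp8 and Mmp27. Adam6b, which lies in the immunoglobulin heavy chain locus, had 2 counts in each dd library and none in either ff library, which does not exceed the limit for a count of 0.

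In the libraries labelled dd 9 of the tested members fell and none rose. The 9 were 7 ADAMTS genes (Adamts4, Adamts10, Adamts12, Adamts14, Adamts15, Adamts18 and Adamts19), the ADAMTS-like gene Adamtsl5 and the secreted protease gene Mmp19. That is 9 of 57 tested members (15.8%) lower and 0 of 57 higher in edgeR's quasi-likelihood test at an adjusted p under 0.05, whereas 3.86% of all 18530 tested genes were lower and 4.52% higher (8.39% in either direction). At an unadjusted edgeR p under 0.05, 21 of the 57 members were lower and 4 higher. Over all tested genes the shares were 14.4% lower and 14.9% higher. DESeq2 called 19 of the 57 members lower and 1 higher, while over all tested genes it called 7.65% lower and 8.55% higher. Both dd libraries lay below both ff libraries for 31 members (54.4%, against 31.3% of all tested genes), and above both for 6 members (10.5%, against 31.6%). The median log2 ratio of dd to ff was −0.31 over the tested members and 0.00 over all tested genes, and 39 of 57 members were below 0 (49.7% of all genes were).

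The calls depended on having all 4 libraries. Without dd replicate 1, 3 of the 9 genes were called, without dd replicate 2 only Adamts15, without ff replicate 1 none, and without ff replicate 2 there were 4. In those fits 1 group holds a single library, whose spread is taken from the remaining pair. For each of the 9 genes both dd libraries lay below both ff libraries. Leaving out 1 library could therefore hardly turn the sign of their estimates, and none turned. The median of the tested members stayed between −0.38 and −0.31. Library size alone as the scaling, in place of TMM, moved the share of higher genes among all calls to 42.4%, against 53.9%, and the median of all genes to −0.08, and it called 12 members lower and 0 higher.

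**Figure D2:**
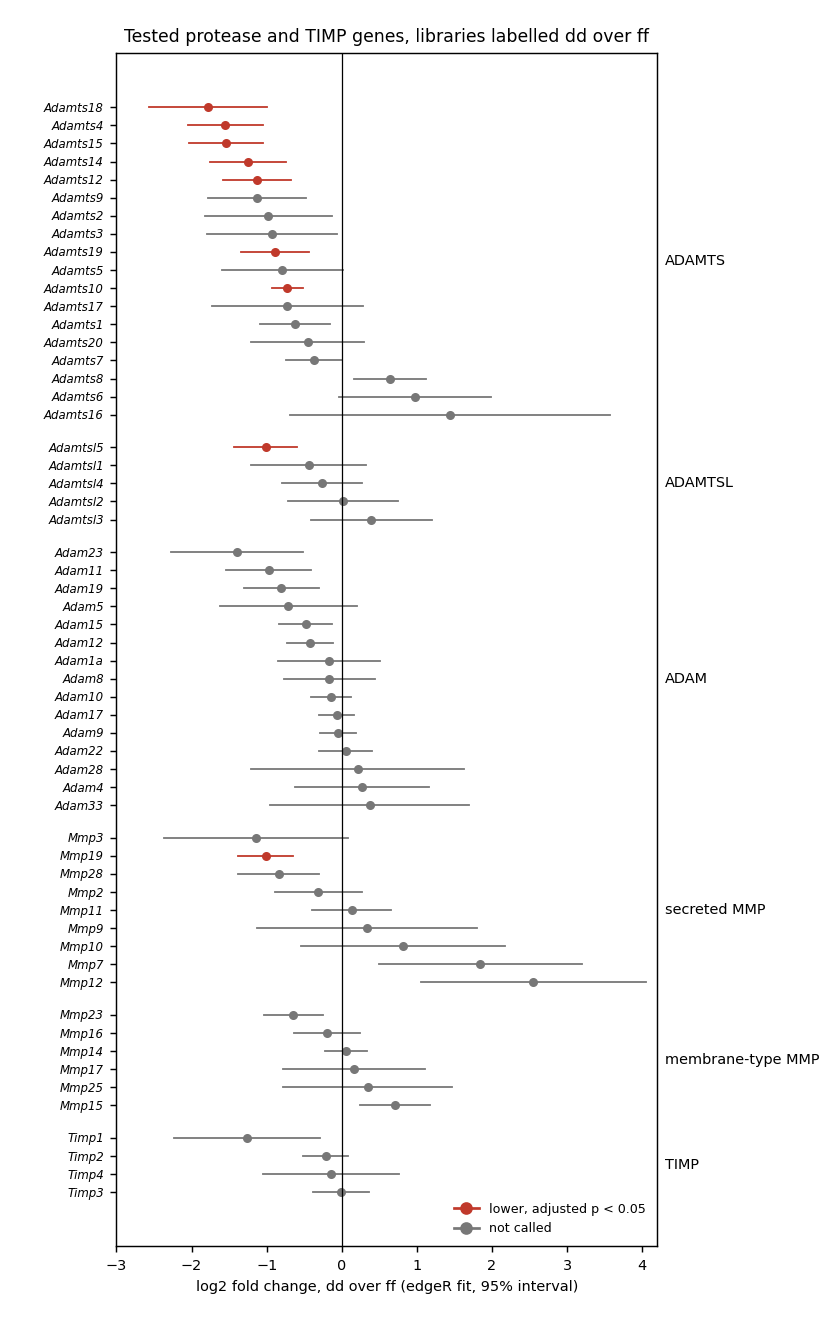
Log2 fold change of dd over ff for the 57 tested members, by family, with the 95% interval of the edgeR fit; red marks the 9 members that were lower at an adjusted p under 0.05. The ADAMTS genes reach furthest below 0, with a median of −0.84. The ADAM and membrane-type Mmp genes hold no call and have medians of −0.17 and 0.11, though Adam23 lies at −1.39 and Adam11 at −0.97.

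Among the ADAMTS genes that cut versican and related proteoglycans, Adamts15 (chromosome 9, 30899155 to 30922452, minus strand, mm10) had 23.1 and 16.0 CPM in dd libraries, against 57.9 and 56.1 CPM in ff libraries. Its log2 fold change was −1.55 (SE 0.190, edgeR adjusted p = 0.0248). Adamts4 (chromosome 1, 171250421 to 171260637), an aggrecanase that also cuts versican, had 15.6 and 11.5 CPM in dd, against 43.0 and 36.0 CPM in ff. Its log2 fold change was −1.55 (SE 0.193, edgeR adjusted p = 0.0251). For both genes each dd library lay below each ff library, while the dd libraries were 1.44-fold apart for Adamts15 and 1.36-fold apart for Adamts4. Both genes had similar folds, 0.343 for Adamts15 and 0.342 for Adamts4. The call of Adamts15 was lost only without ff replicate 1 (adjusted p = 0.0781). That of Adamts4 was lost without dd replicate 2 (adjusted p = 0.0561) and without ff replicate 1 (adjusted p = 0.0784). Exons of 16 of the tested members overlap those of a gene on the opposite strand, and no source used here says whether the authors counted by strand, so such reads cannot be told apart.

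The other proteoglycan-cutting members did not pass. Adamts1 had 74.4 and 54.3 CPM in dd and 106.6 and 91.6 CPM in ff (log2 −0.63, edgeR adjusted p = 0.0995), and DESeq2 called it lower (adjusted p = 0.0275). For Adamts9 the values were 47.4 and 34.9 CPM in dd and 107.8 and 71.7 CPM in ff (log2 −1.13, edgeR adjusted p = 0.0632). With 1 library left out, the log2 fold change of Adamts9 lay between −1.39 and −0.80. Adamts5 had 20.1 and 11.1 CPM in dd and 23.97 and 29.99 CPM in ff (edgeR adjusted p = 0.176). In all 3 genes both dd libraries were below both ff libraries. Adamts8 lay the other way, at 8.97 and 8.52 CPM in dd and 6.04 and 5.20 CPM in ff (log2 0.64, edgeR adjusted p = 0.102). Adamts8 and Adamts15 are neighbours, 20.1 kb apart on chromosome 9 and transcribed away from each other, and the difference between their changes was not tested. Over the 7 genes of the group, 2 fell, none rose, and the median log2 fold change was −0.79. Adamts1 and Adamts5 are also neighbours, 53.1 kb apart on chromosome 16.

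Members that remove the N-propeptide of fibrillar procollagens are Adamts2, Adamts3 and Adamts14. Adamts14 (chromosome 10, 61197112 to 61273438) fell to 11.0 and 9.05 CPM in dd, against 20.8 and 26.9 CPM in ff (log2 −1.25, SE 0.194, edgeR adjusted p = 0.0327). Adamts2, the most abundant of them, had 74.1 and 39.4 CPM in dd and 127.5 and 95.4 CPM in ff and did not pass (log2 −0.98, edgeR adjusted p = 0.134). Adamts3 was at 2.79 and 2.28 CPM in dd and at 6.04 and 3.63 CPM in ff (log2 −0.93, edgeR adjusted p = 0.15). Every dd library was below every ff library in each of the 3 genes, although the dd libraries of Adamts2 differed from each other by nearly as much as the groups did. 

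A further 4 ADAMTS genes fell. Adamts10 (chromosome 17, 33524204 to 33553782), which takes part in fibrillin microfibrils, had 66.9 CPM in both dd libraries, against 108.9 and 112.9 CPM in ff, with a log2 fold change of −0.73 (SE 0.080, edgeR adjusted p = 0.0227). Its dd libraries were closer together than those of the other 8 genes, and its fold (0.603) was the smallest departure among them. It was called without ff replicate 2 (adjusted p = 0.0402) and not when another library was left out (adjusted p between 0.0628 and 0.0699). Adamts12 (chromosome 15, 11064790 to 11349231), known to cut cartilage oligomeric matrix protein, had 21.6 and 16.6 CPM in dd, against 37.9 and 45.6 CPM in ff (log2 −1.13, edgeR adjusted p = 0.0333), a call kept only without dd replicate 1 (adjusted p = 0.0447). Adamts19 (chromosome 18, 58836667 to 59054060) had 12.7 and 15.7 CPM in dd, against 23.7 and 28.9 CPM in ff (log2 −0.89, edgeR adjusted p = 0.049). Adamts18 (chromosome 8, 113697126 to 113848738) rested on 9 and 14 counts in dd and 50 and 45 counts in ff, or 0.381 and 0.462 CPM in dd and 1.502 and 1.445 CPM in ff (log2 −1.79, SE 0.303, edgeR adjusted p = 0.038). None of the calls of Adamts14, Adamts18 and Adamts19 was kept when any 1 library was left out, with adjusted p between 0.0622 and 0.153.

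Besides Adamts8, a pair of ADAMTS genes lay higher in dd libraries without passing. Adamts6, a close relative of Adamts10, had 35.6 and 43.7 CPM in dd and 12.5 and 27.9 CPM in ff (log2 0.98, edgeR adjusted p = 0.18). Adamts16 had 55.2 and 31.9 CPM in dd and 4.54 and 27.5 CPM in ff (log2 1.44, edgeR adjusted p = 0.308). The ff libraries of Adamts16 were 6.07-fold apart, so that ff replicate 2 lay close to the lower dd library. Without ff replicate 2 both genes were called higher, Adamts6 with a fold of 3.16 (adjusted p = 0.0278) and Adamts16 with a fold of 9.55 (adjusted p = 0.0322). Without ff replicate 1 the fold was 1.42 for Adamts6 (adjusted p = 0.234) and 1.58 for Adamts16 (adjusted p = 0.395), against 1.97 and 2.72 with all libraries. Adamts7 (45.6 and 59.2 CPM in dd, 66.3 and 69.1 CPM in ff) did not pass either (edgeR adjusted p = 0.175).

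Summed over the 19 ADAMTS genes, CPM was 518.4 and 425.2 in dd libraries, against 759.1 and 736.3 in ff libraries. Of 18 tested ADAMTS genes 7 fell, none rose, and the median log2 fold change was −0.84. The marker sums given above moved with them, down in dd for stroma and endothelium and up for epithelium, and their part in these decreases was not tested. The ADAMTS-like gene Adamtsl5 (chromosome 10, 80339110 to 80348412) fell as well, to 8.76 and 7.36 CPM in dd, against 16.0 and 16.5 CPM in ff (log2 −1.01, SE 0.160, edgeR adjusted p = 0.0338), but not when any 1 library was left out (adjusted p between 0.063 and 0.113). The more abundant Adamtsl4, whose product binds fibrillin, had 44.7 and 30.9 CPM in dd and 41.4 and 49.3 CPM in ff, and these ranges overlapped (edgeR adjusted p = 0.44). Adamtsl1 did not pass, at 21.6 and 11.8 CPM in dd and 22.5 and 22.7 CPM in ff (edgeR adjusted p = 0.38).

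**Figure D3:**
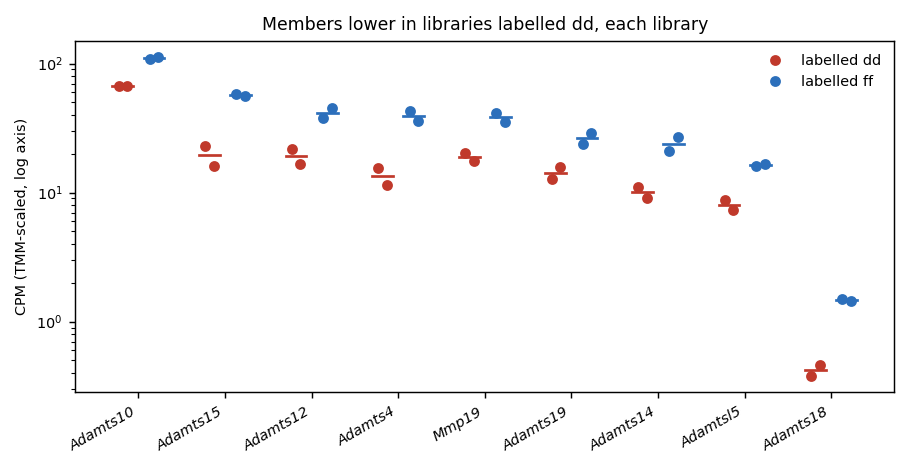
CPM (TMM-scaled, log axis) of the 9 members that were lower in the libraries labelled dd, with a point for each library and a bar at the mean, dd in red and ff in blue. No dd point reaches an ff point of the same gene, from Adamts10 at 66.9 CPM in dd to Adamts18 at 0.381 and 0.462 CPM in dd.

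Among secreted Mmp genes only Mmp19 passed. Mmp19 (chromosome 10, 128790910 to 128800824), an enzyme that cuts basement membrane proteins, had 20.4 and 17.5 CPM in dd libraries, against 41.3 and 35.1 CPM in ff libraries (log2 −1.01, SE 0.142, edgeR adjusted p = 0.0288). Its exons overlap those of Tmem198b and Gm47093 on the opposite strand. The call was kept without ff replicate 2 (adjusted p = 0.0351) and not without dd replicate 1, dd replicate 2 or ff replicate 1 (adjusted p between 0.0574 and 0.0934).

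The gelatinase genes did not differ beyond the spread of their libraries. Mmp2 had 287.9 and 417.9 CPM in dd and 488.9 and 388.3 CPM in ff, so that dd replicate 2 lay between the ff libraries (log2 −0.31, 95% interval −0.89 to 0.26, edgeR adjusted p = 0.403). Mmp9, the gelatinase B made largely by leukocytes, had 7.24 and 4.29 CPM in dd and 2.34 and 6.77 CPM in ff (log2 0.34, 95% interval −1.13 to 1.80, edgeR adjusted p = 0.731). Mmp11, the stromelysin-3 gene, had 27.0 and 36.2 CPM in dd and 25.1 and 32.6 CPM in ff (log2 0.13, 95% interval −0.40 to 0.66, edgeR adjusted p = 0.704). The interval of Mmp9 is wide enough to hold a change of 1 on the log2 scale in either direction.

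A run of 10 Mmp genes lies on chromosome 9, between 7272514 and 7699585 (mm10), and only 4 of them had enough counts to be tested. Mmp3, the stromelysin-1 gene, was the highest of the 10, at 9.35 and 6.54 CPM in dd and 25.02 and 10.05 CPM in ff. It did not pass (log2 −1.15, edgeR adjusted p = 0.192), and ff replicate 2 lay near the dd libraries; without that library it was called lower (log2 −1.66, adjusted p = 0.0437), and without ff replicate 1 its log2 fold change was −0.34 (adjusted p = 0.588). Mmp7, the matrilysin made by uterine epithelium, had 1.95 and 1.09 CPM in dd and 0.571 and 0.257 CPM in ff (log2 1.84, edgeR adjusted p = 0.0986). Mmp12, the macrophage elastase, had 12 and 24 counts in dd and 2 and 5 counts in ff (log2 2.55, edgeR adjusted p = 0.0656). For both genes each dd library lay above each ff library, without passing. On its ff libraries alone neither gene would have passed the filter on low counts. Their separation and folds therefore depend in part on that selection. The fold of Mmp7 was 3.59 and lay between 2.61 and 5.78 when 1 library was left out. That of Mmp12 was 5.85 and lay between 4.01 and 10.24 in these fits. Without the filter on low counts both were called higher. Exons of Mmp12 overlap those of Mmp1b on the opposite strand, and Mmp1b itself had no count. Mmp10, the stromelysin-2 gene, had 26 and 14 counts in dd and 16 and 12 in ff (edgeR adjusted p = 0.36). Macrophage markers, summed over 10 genes, were at 445.1 and 435.0 CPM in dd and 545.3 and 643.5 CPM in ff, with 6 called lower.

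**Figure D4:**
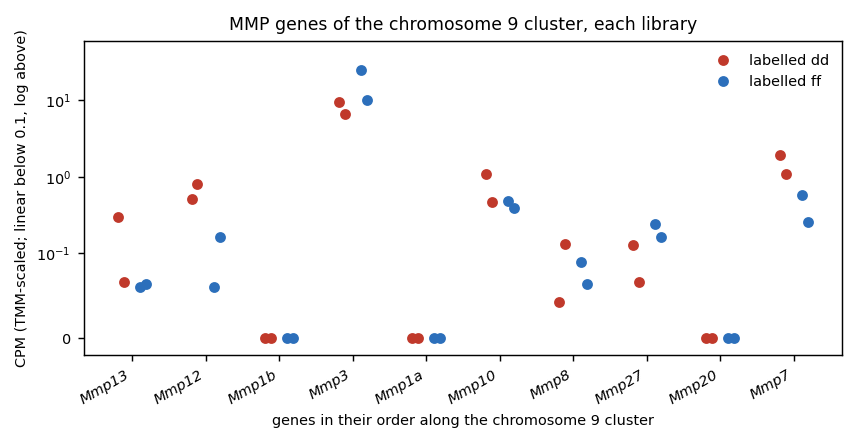
CPM (TMM-scaled, linear below 0.1 and log above) of the 10 Mmp genes of chromosome 9 in their order along the cluster, with a point for each library, dd in red and ff in blue. Mmp3 is highest, with both dd points below both ff points, Mmp12 and Mmp7 have both dd points above both ff points, and Mmp1b, Mmp1a and Mmp20 have no counts.

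Promoter sequences are shown for some genes of this cluster and for called ADAMTS genes, chosen because they hold motifs searched here. RefSeq (GRCm38.p6, the build of mm10) held an entry for 53 of the 84 members, for all 10 Mmp genes of the cluster and for 4 of the 9 genes that fell. Over the 250 bases before an annotated start, searched on both strands, the AP-1 motif TGANTCA (bound by Fos and Jun dimers) was found in 8 of the 10 cluster genes, against 7.82% of all 27025 genes with an entry. The TATA motif TATAAA was in 7 of the 10, against 14.3% of all genes. The GC box GGGCGG (bound by Sp1-type factors) was in 24 of the 53 members with an entry, against 35.4% of all genes. It was in none of the 10 and in 3 of the 4 genes that fell (Adamts14, Adamts18 and Adamtsl5), but not in Adamts12. None of the 4 held the AP-1 motif. The cAMP response element TGACGTCA was in 0 of 53 members, against 1.77% of all genes. The steroid response element, searched as GNACA and TGTNC with 3 free bases between them, was also in 0 of 53, against 0.440% of all genes. The AP-1 and TATA matches shown share no base. A match is a run of letters, and binding was not measured. The 110 bases before the start are given 5′ to 3′ on the strand of the gene, with AP-1 and TATA motifs in capitals for Mmp genes and GC boxes (read as CCGCCC where they lie on the other strand) in capitals for ADAMTS genes.
Mmp3, chr9:7445712-7445821, + strand: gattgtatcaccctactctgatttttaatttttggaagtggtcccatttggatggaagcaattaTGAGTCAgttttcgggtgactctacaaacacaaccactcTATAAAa
Mmp10, chr9:7502232-7502341, + strand: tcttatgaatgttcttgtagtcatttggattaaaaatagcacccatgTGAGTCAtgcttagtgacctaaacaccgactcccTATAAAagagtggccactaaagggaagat
Mmp7, chr9:7691980-7692089, + strand: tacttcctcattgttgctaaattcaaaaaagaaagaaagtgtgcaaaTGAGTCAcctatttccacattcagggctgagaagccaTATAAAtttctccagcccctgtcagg
Mmp12, chr9:7347264-7347373, + strand: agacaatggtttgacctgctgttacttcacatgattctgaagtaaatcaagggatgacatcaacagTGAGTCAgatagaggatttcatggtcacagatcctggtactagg
Adamts14, chr10:61273420-61273529, - strand: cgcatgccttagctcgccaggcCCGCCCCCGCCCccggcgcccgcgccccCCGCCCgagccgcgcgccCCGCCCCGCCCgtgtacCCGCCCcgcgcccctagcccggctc
Adamts18, chr8:113848840-113848949, - strand: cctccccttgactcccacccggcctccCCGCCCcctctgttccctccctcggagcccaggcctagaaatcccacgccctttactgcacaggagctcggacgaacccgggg
In the Mmp genes shown the AP-1 motif began between 63 and 44 bases before the start. Mmp3 and Mmp10 are stromelysin genes with this arrangement, and Mmp3 had the lower mean in dd and Mmp10 the higher, without either passing. Adamts14 held 6 GC boxes within the stretch, in part sharing bases with each other, and Adamts18 held 1. For Mmp12 the stretch belongs to the second of its annotated starts. The 250 bases before its first start held neither motif, so Mmp12 counts among the 8 genes by the second start alone.

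Membrane-type Mmp genes held no call among 6 tested. Mmp14 had 223.8 and 256.3 CPM in dd libraries and 233.4 and 227.8 CPM in ff libraries (log2 0.06, 95% interval −0.22 to 0.34, edgeR adjusted p = 0.757). Mmp15, like Mmp14 a transmembrane enzyme, was at 81.0 and 109.2 CPM in dd and 53.0 and 63.3 CPM in ff (log2 0.71, edgeR adjusted p = 0.0789), and DESeq2 called it higher (adjusted p = 0.0106). For Mmp23 the values were 50.2 and 39.9 CPM in dd and 76.1 and 64.9 CPM in ff (log2 −0.65, edgeR adjusted p = 0.0688), and DESeq2 called it lower (adjusted p = 0.00937). Both genes separated the labels, in opposite directions. Summed over the 7 membrane-type genes, CPM was 439.7 and 449.2 in dd and 427.6 and 408.6 in ff.

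Of 15 tested ADAM genes none was called by edgeR, 5 were lower and 0 higher at an unadjusted p under 0.05, and DESeq2 called 4 lower (Adam11, Adam15, Adam19 and Adam23). The broadly acting sheddases had estimates close to 0. Adam10 had 132.5 and 151.9 CPM in dd and 159.4 and 154.0 CPM in ff (log2 −0.14, 95% interval −0.41 to 0.13, edgeR adjusted p = 0.42). Adam17, which releases TNF and EGF receptor ligands, had 72.5 and 67.0 CPM in dd and 75.7 and 70.6 CPM in ff (log2 −0.07, 95% interval −0.31 to 0.17, edgeR adjusted p = 0.658). Adam9 was at 80.9 and 78.7 CPM in dd and 86.6 and 78.0 CPM in ff (log2 −0.05, 95% interval −0.28 to 0.19, edgeR adjusted p = 0.779). The intervals of these 3 genes hold no change as large as 1 on the log2 scale in either direction.

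Adam15 had 114.1 and 90.0 CPM in dd, below 143.3 and 141.3 CPM in ff (log2 −0.48, edgeR adjusted p = 0.0971; DESeq2 adjusted p = 0.0369). Adam19, the meltrin beta gene, lay at 49.9 and 34.0 CPM in dd and at 75.0 and 71.5 CPM in ff (log2 −0.81, edgeR adjusted p = 0.0735). With 1 library left out, the log2 fold change of Adam19 lay between −1.10 and −0.55. Its relative Adam12 had 79.4 and 88.1 CPM in dd and 103.3 and 121.6 CPM in ff (log2 −0.43, edgeR adjusted p = 0.0946). All 3 had both dd libraries below both ff libraries and none passed in edgeR's test with all libraries, while DESeq2 called Adam15 and Adam19. Among ADAM genes without a catalytic site, Adam11 had 10.1 and 11.8 CPM in dd and 17.6 and 25.2 CPM in ff (edgeR adjusted p = 0.0648). Adam23 had 1.44 and 0.957 CPM in dd and 3.64 and 2.63 CPM in ff (log2 −1.39, edgeR adjusted p = 0.0756). Adam22 overlapped at 16.4 and 17.6 CPM in dd and 15.4 and 17.5 CPM in ff (edgeR adjusted p = 0.839).

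The inhibitor genes had no call in edgeR. Timp1, an inhibitor of most secreted Mmp enzymes, had 14.9 and 10.23 CPM in dd libraries and 39.7 and 20.3 CPM in ff libraries. Its log2 fold change was −1.26 (SE 0.376, edgeR adjusted p = 0.108), with DESeq2 giving an adjusted p of 0.0109. It was called lower without ff replicate 2 (log2 −1.67, edgeR adjusted p = 0.0403) and stood at −0.69 without ff replicate 1. Thus dd lay below ff in every library, but the ff libraries were themselves 1.96-fold apart. Timp2 had 420.3 and 367.6 CPM in dd and 466.9 and 447.6 CPM in ff (log2 −0.21, 95% interval −0.51 to 0.08, edgeR adjusted p = 0.286). Timp3, which stays bound to the matrix and also inhibits ADAM and ADAMTS enzymes, had 83.8 and 105.8 CPM in dd and 89.6 and 101.4 CPM in ff (log2 −0.01, 95% interval −0.38 to 0.36, edgeR adjusted p = 0.973), with exons of Syn3 on the opposite strand. Timp4 was at 12 and 21 counts in dd and 20 and 23 counts in ff (edgeR adjusted p = 0.821).

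Replicates set limits that differ between members. In ff libraries 7 tested members were over 2-fold apart, and in dd libraries 4 were. Besides Adamts16, the widest were Adam28 in ff (3.2-fold, with 9.85 and 3.08 CPM) and Adam33 in dd (3.05-fold, with 59.1 and 19.3 CPM). Mmp17, a membrane-type gene, was 2.09-fold apart in dd, at 76.1 and 36.3 CPM. Muscle markers, summed over 9 genes, were likewise higher in dd replicate 1, at 11330 CPM, than in dd replicate 2, at 6444 CPM, with 8257 and 7023 CPM in ff, and their part in the spread of Adam33 and Mmp17 was not tested. Mmp9, Mmp3, Mmp12, Mmp7 and Adamts6 were the other members over this bound in ff, and none of the members over it in either group was called.

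Other genes of the pathway were followed in 5 lists (proteases that activate these enzymes, receptors and cofactors, inhibitors, related metalloproteases and substrates). Of 81 genes 71 were tested, 6 (8.45%) rose and 7 (9.86%) fell, against 4.52% and 3.86% of all tested genes. Without ff replicate 1 none of them was called, and without dd replicate 2 only 1 was higher and 1 lower. Without dd replicate 1 there were 4 of each, and without ff replicate 2 there were 2 higher and 7 lower.

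Proteases upstream moved in both directions. Plat, the tissue plasminogen activator, rose to 276.1 and 568.8 CPM in dd, against 86.9 and 120.9 CPM in ff (log2 2.02, edgeR adjusted p = 0.0471), with a fold of 4.07 that became 2.66 without dd replicate 2 (adjusted p = 0.0624). Its call was also lost without ff replicate 1 (adjusted p = 0.167) and ff replicate 2 (adjusted p = 0.0768). The membrane serine protease genes Prss8 (log2 1.11, edgeR adjusted p = 0.024) and Hpn (log2 1.58, edgeR adjusted p = 0.0354) also rose. Pcsk5, a furin-type convertase, fell to 68.6 and 47.2 CPM in dd, against 134.7 and 123.0 CPM in ff (log2 −1.16, edgeR adjusted p = 0.0378), while Furin itself did not pass (log2 −0.11, edgeR adjusted p = 0.473). With 1 library left out, Prss8 was lost without dd replicate 2 (adjusted p = 0.0521) and ff replicate 1 (adjusted p = 0.0816), Hpn was called only without dd replicate 2 (otherwise between 0.0629 and 0.127), and Pcsk5 only without dd replicate 1 (otherwise between 0.0613 and 0.122). Plg, the plasminogen gene, had no count in any library.

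Among inhibitors A2m, the alpha-2-macroglobulin that traps proteases of all classes, had 93.2 and 162.9 CPM in dd, against 30.3 and 17.5 CPM in ff (log2 2.42, SE 0.38, edgeR adjusted p = 0.0338), with folds between 3.9 and 7.32 when 1 library was left out. It was then called only without dd replicate 1 (otherwise adjusted p between 0.0575 and 0.0706). Spint2, an inhibitor of membrane serine proteases, rose as well (log2 0.83, edgeR adjusted p = 0.0235), a call lost without dd replicate 2 (adjusted p = 0.0678) and ff replicate 1 (adjusted p = 0.0730). Reck, a membrane-anchored inhibitor of Mmp enzymes, had a log2 fold change of 0.00 (edgeR adjusted p = 0.995). Bmp1, the procollagen C-proteinase, fell by 0.45 on the log2 scale (edgeR adjusted p = 0.0481), and so did Lrp1, the receptor that clears several of these enzymes, by 0.68 (edgeR adjusted p = 0.0292). Neither call was kept when any 1 library was left out.

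Of 20 tested substrate genes 4 fell, all matrix genes, and 1, a shed growth factor, rose. Fbn1 (fibrillin-1), Fn1 (fibronectin), Col4a1 and Col4a2 (collagen IV chains) fell, with log2 fold changes of −1.29, −1.03, −1.21 and −1.03 (edgeR adjusted p between 0.0227 and 0.0354). When 1 library was left out, Fbn1 was called in 3 of 4 fits and lost without ff replicate 1 (adjusted p = 0.0687). Col4a1 was called in 2 and lost without dd replicate 2 or ff replicate 1 (adjusted p = 0.0694 and 0.0879), Fn1 was called in 1, without ff replicate 2 (otherwise between 0.0594 and 0.0669), and Col4a2 was called in none (between 0.0502 and 0.112). Versican, a proteoglycan cut by Adamts1, Adamts4 and Adamts15, is encoded by Vcan, which did not pass (log2 −0.57, edgeR adjusted p = 0.143). Hbegf, a growth factor shed by ADAM enzymes, rose to 11.9 and 13.5 CPM in dd, against 7.42 and 6.71 CPM in ff (log2 0.85, edgeR adjusted p = 0.0499), and was not called when any 1 library was left out. The collagen genes Col1a1, Col1a2 and Col3a1 did not pass (log2 −0.65, −0.71 and −0.86). Fn1 is also on the list of stromal markers, and the part of the marker sums in these changes was not tested.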

How the data were processed

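RNA from whole uteri was sequenced in 2 libraries labelled dd and 2 labelled ff. Per the submitters' processing notes, STAR and edgeR were used with mm10; the sources used here do not give counter, annotation or strand setting. The deposited table holds raw counts per gene symbol, counts rescaled by the authors (a signal not used here), FPKM values (per the file headers), the authors' fold as a ratio of dd over ff, and the authors' unadjusted p-value.

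Counts were tested with edgeR 4.0.16 (R 4.3.3) by TMM scaling, filterByExpr, the quasi-likelihood fit and Benjamini-Hochberg adjustment over 18530 genes, without a replicate block, calling genes at an adjusted p under 0.05. The step was tested on simulated data with 50 genes changed at each fold. There it called 52% of 2-fold rises and 44% of falls to 0.5-fold, and 96% each of changes to 4-fold and 0.25-fold. The simulation gave genes of equal level the same spread and changed no gene with few counts. These shares may therefore be too high for members with few counts or a wide spread. CPM values use TMM-scaled library sizes and log2 intervals are 95% ones. A floor of 3 counts applied to a count of 0. Totals were 24619850 and 30868922 counts in dd and 32451670 and 30202955 in ff. Replicates differed by more than sampling noise (chi-square per degree of freedom 36.0 in dd and 35.3 in ff). Positions and overlaps came from GENCODE M21 (GRCm38), and promoters from RefSeq. As alternatives, a replicate block was added, each library was left out, and other scaling factors and filters, DESeq2 1.42.0, and limma 3.58.1 with voom or on log2(FPKM + 0.5) and log2(FPKM + 0.1) were tried.

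Named genes were all called members, Timp1 to Timp4, a set of well-known members (Mmp2, Mmp3, Mmp7, Mmp9, Mmp11, Mmp14, Adam10, Adam17 and Adamts1) and the 3 with the highest FPKM in each subfamily; other members named were chosen after their values were seen. Members and lists were chosen with earlier results of these data known.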

Additional observations from a re-analysis of the deposited data

How the results depend on the processing

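Over 14 alternatives, the members called lower were 9 with the RLE and upper quartile factors and with 1 CPM in 2 libraries, 8 with limma-voom, 6 with limma on FPKM at either pseudocount and 12 with library size alone, and no member was higher in any of these. DESeq2 called 19 lower and 1 higher, and leaving out the filter on low counts gave 18 lower and 3 higher. Leaving out 1 library gave between 0 and 7 lower and between 0 and 2 higher. Over all genes the counts were 838 higher and 716 lower, or 1584 and 1417 with DESeq2, 1584 and 1363 without the filter, and between 62 and 726 higher and 28 and 472 lower with 1 library left out. The other pathway genes gave 6 higher and 7 lower, or 9 and 15 with DESeq2, 11 and 15 without the filter, and between 0 and 4 higher and 0 and 7 lower with 1 library left out. Sharing a replicate number showed no common deviation (correlation 0.013 over 18530 genes), and with the replicate block 15 members were lower and 1 (Mmp15) higher, and 8 of the 9 calls were kept, all but Adamts18.

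The 9 genes called lower kept their sign in every alternative. Each has both dd libraries below both ff libraries, so refits of the same libraries could hardly turn it. Several other estimates turned sign when 1 library was left out. Log2 fold changes then lay between −0.123 and 0.033 for Adam9, −0.093 and 0.336 for Mmp11, and −0.042 and 0.159 for Mmp14. The ranges were −0.237 to 1.29 for Mmp9, −0.186 to 0.155 for Timp3, and −0.392 to 0.059 for Timp4. Further members turned too, among them Adam33 (−0.637 to 0.969), Mmp17 (−0.459 to 0.602) and Adam28 (−0.398 to 1.28). With library size alone Mmp14 stood at −0.025. The cause was not tested. Depth limits the members with few counts, such as Mmp12 with 2 to 24 counts and Adamts18 with 9 to 50 counts in a library.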

Other observations

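The authors' deposited table gives an unadjusted p under 0.05 to 13 members with a fold of dd over ff below 1 and to 5 with a fold above 1, out of 84. Over all 54152 genes it does so for 1475 (2.72%) below 1 and 1678 (3.1%) above 1. Of the 13, 7 were also called lower by edgeR here. The 5 with a fold above 1 in the authors' deposited table were Mmp12 (fold 5.84, p = 0.000465), Mmp7 (fold 3.59, p = 0.00117), Adamts16 (fold 2.71, p = 0.00223), Adamts6 (fold 1.97, p = 0.0365) and Adam7 (fold 4.66, p = 0.0206). None of these was called by edgeR's quasi-likelihood test with the filter on low counts and all libraries, and Mmp12 and Mmp7 were called without that filter. Adam7 had 3 and 14 counts in dd and 0 and 4 in ff and was not tested. Conversely, the authors' deposited table gives Adamts10 a fold of 0.603 with a p of 0.115, although it had the smallest adjusted p of any member in the edgeR fit.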
